A study of Homo sapiens with 32 samples.

Results

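The mu class of glutathione S-transferases was examined in LNCaP, a prostate cancer cell line that grows with androgen, through the 5 gene rows GSTM1, GSTM2, GSTM3, GSTM4 and GSTM5 out of 57773 rows of the count table. The family was chosen on the values of these same libraries, because the GSTM3 row went from near 0 to far higher counts when the activating construct was induced. That difference is therefore given as a description with no test, and the question asked of the other libraries and rows was whether GSTM3 moved alone in its gene cluster. RNA-seq had been done on the parental line and on stable lines with 1 of 3 MACCs (modifiers of chromatin at androgen response elements), all built on the DNA binding domain of the androgen receptor, a tamoxifen-inducible ERT2 domain and a 3X FLAG tag. The neutral MACC carried nothing more, the repressive MACC added KRAB and the activating MACC added VP64. Each of the 4 lines received 2.5 µM tamoxifen or vehicle (EtOH) for 48 h, giving 8 groups of 4 libraries labelled as biological replicates and 32 libraries in all. The MACC lines were selected and kept in blasticidin, and the sources used here name none for the parental line. A MACC line may therefore differ from the parental line in selection as well as in its construct. Nothing in those sources says whether a line was 1 clone.

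Glutathione S-transferases join the tripeptide glutathione to reactive, electrophilic molecules, which makes these easier to export from the cell. The mu class is encoded by neighboring genes on chromosome 1, where GSTM3 runs in the opposite direction to the other 4 genes. A deletion that removes all of GSTM1 is common in human populations, and the state of that gene in this line was not tested. In prostate cancer the transferase best known for being silenced belongs to another class, GSTP1, whose promoter becomes methylated.

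The libraries held 454982 to 1164808 counts, with a median of 669922, and levels are given as CPM, the counts scaled to the size of the library with TMM factors. The targeted sequences followed the labels of the lines, and no gene of the table marks VP64, which is viral. ESR1, which supplies the ERT2 sequence, had 66 to 159 counts in the MACC lines and 0 to 2 in the parental line, and ZNF10, the source of KRAB, had 11 to 20 counts in the repressive line and 0 or 1 elsewhere. All 9 luminal prostate markers had counts in every library, at a summed level of 843 to 1728 CPM in 7 groups and 8720 to 11019 CPM in the activating tamoxifen group. The summed level of the 3 basal markers KRT5, KRT14 and TP63, of which 1 stayed at 0 throughout, was 78.6 to 99.2 CPM in the activating tamoxifen group and at most 4.28 CPM elsewhere, and fibroblast, leukocyte and endothelial markers summed to at most 3.05 CPM in any library. These marker sums moved with the same libraries in which GSTM3 was high, and their part in the result was not tested. In bulk RNA, more cells expressing a gene and more RNA per cell cannot be told apart.

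On GRCh37, with gene spans from the GENCODE annotation lifted to that build, the cluster began with GSTM4 at chr1:110198721-110208118, GSTM2 at chr1:110210644-110252173 and GSTM1 at chr1:110230436-110251661, all on the plus strand. GSTM5 followed on the plus strand at chr1:110254402-110318050, and GSTM3 lay within that span on the minus strand, at chr1:110276554-110283660. All 5 are protein-coding genes. GSTM3 (ENSG00000134202) shared 202 of its 4750 exonic bases, 4.25%, with an exon of the lncRNA row RP4-735C1.4 on the other strand. GSTM1 (ENSG00000134184) shared 402 of 2512 exonic bases, 16%, with the lncRNA row AC000032.2, and GSTM2, GSTM4 and GSTM5 had no opposite-strand exons. The library kit keeps the strand of each RNA, while the strand setting used in counting is not given in the sources used here. In either pair, reads over the shared exonic bases therefore cannot be assigned to the gene or to its opposite-strand partner.

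Because each MACC binds DNA through the androgen receptor domain, the start regions of the 5 genes were read for letters of an androgen response element. The sequences are those of RefSeq on GRCh38.p14, from 250 bases before to 50 bases after each gene start, and all 5 members were matched. Those of GSTM3 and GSTM1 are shown because GSTM3 was the member that was counted and GSTM1 stands for the other 4. They are printed 5′ to 3′ in lower case, with capitals kept for either arm of that element, and neither contains one.
GSTM3 (chr1:109740989-109741288, - strand): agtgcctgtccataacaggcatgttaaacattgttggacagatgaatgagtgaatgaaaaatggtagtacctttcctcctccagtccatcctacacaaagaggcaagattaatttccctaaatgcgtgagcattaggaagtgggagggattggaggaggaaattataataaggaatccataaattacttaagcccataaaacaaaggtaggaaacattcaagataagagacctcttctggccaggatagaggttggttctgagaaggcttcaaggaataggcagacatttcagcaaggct
GSTM1 (chr1:109687567-109687866, + strand): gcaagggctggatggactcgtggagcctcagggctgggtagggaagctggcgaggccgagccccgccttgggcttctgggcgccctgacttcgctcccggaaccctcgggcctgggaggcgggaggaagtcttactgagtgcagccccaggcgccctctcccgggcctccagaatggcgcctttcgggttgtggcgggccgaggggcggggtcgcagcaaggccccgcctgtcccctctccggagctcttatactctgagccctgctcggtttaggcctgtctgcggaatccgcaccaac
Neither arm, AGAACA or TGTTCT, was found on either strand in any of the 5 windows. These letters occurred in 14.8% of 35116 promoter windows of the same length, and the full palindrome (AGAACA, any 3 bases, TGTTCT) in 1 of them. The absence says only that the letters are not in these windows. The GSTM3 window stood apart in base composition, with 41.3% G and C against 62.3 to 69.3% in the other 4 windows. It shared 39.9 to 43.2% of aligned positions with them, while the other 4 shared 49.7 to 84.7% with each other, and GSTM1 and GSTM5 were the closest pair.

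With the activating MACC the GSTM3 row was near 0 without tamoxifen and high with it. GSTM3 encodes a mu class transferase, known as an enzyme of testis and brain. It had 1 count in each of the 4 activating vehicle libraries and 260, 206, 209 and 251 counts in the 4 activating tamoxifen libraries. The groups did not overlap, and the lowest tamoxifen library had 206 counts against 1 in every vehicle library. The mean level was 435.1 ± 42.0 CPM (SD, n = 4) with tamoxifen and 1.396 ± 0.259 CPM (SD, n = 4) with vehicle. From 926 against 4 summed counts the ratio was 321, with a 95% exact counting interval of 125 to 1181 after TMM scaling, and 257 (100 to 947) when scaled by library totals. These intervals cover counting error only. Of all 3985 genes tested in the activating line, 44.8% had an adjusted p under 0.05, 22.0% higher and 22.8% lower, and nothing is read from GSTM3 against that share because the contrast chose it.

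**Figure D1:**
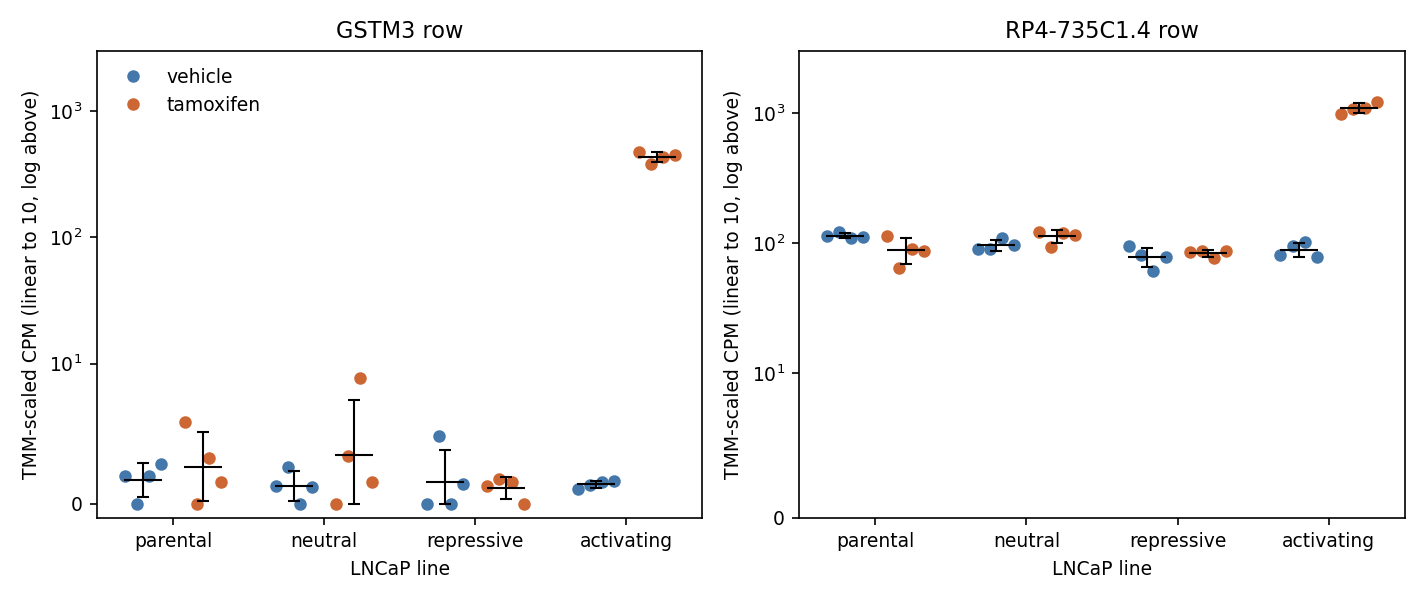
Level in TMM-scaled CPM (linear to 10, logarithmic above) of the GSTM3 row (left) and the RP4-735C1.4 row (right) in the 4 LNCaP lines, with 1 point per library, vehicle in blue and tamoxifen in orange. Bars give mean ± SD of 4 libraries, with the lower end stopped at 0. The activating tamoxifen libraries average 435.1 CPM for GSTM3 and 1088 CPM for RP4-735C1.4, above every other library of each panel.

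GSTM3 was close to the counting floor in the other 28 libraries. Of these, 7 had 0 counts, 14 had 1 count and 4 had 2 counts, and only 3 had more, the highest with 6. The parental line had 1, 0, 1 and 2 counts with vehicle and 4, 0, 2 and 1 with tamoxifen. The neutral line had 1, 2, 0 and 1 counts with vehicle and 0, 2, 6 and 1 with tamoxifen. The repressive line had 0, 4, 0 and 1 counts with vehicle and 1, 1, 1 and 0 with tamoxifen. In each of these lines the vehicle and tamoxifen libraries overlapped.

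GSTM3 passed none of the tests that left out the contrast behind its choice, but these tests could decide little. The row was kept by the filter through the activating tamoxifen libraries, and had at most 6 counts in any library tested here. No conclusion is drawn from the missing calls. The log2 fold change with tamoxifen was 0.60 (SE 0.945) in the parental line, 1.24 (SE 0.954) in the neutral line and −0.62 (SE 1.04) in the repressive line (edgeR quasi-likelihood adjusted p = 0.916, 0.568 and 0.738). All genes together passed that test in 0% (parental), 4.72% (neutral) and 17.8% (repressive) of cases. No gene passed in the parental line with edgeR or DESeq2, while before adjustment 306 of 3985 genes had an edgeR p under 0.05. An exact two-sided permutation test on CPM, for which 4 against 4 libraries can give no p below 0.0286, gave p = 0.629, 0.371 and 0.886 in the same lines, each 1 after adjustment over 4 tests. The counting intervals were wide. The ratio of tamoxifen to vehicle was 1.63 (0.413 to 7.57) in the parental line, 2.53 (0.705 to 11.2) in the neutral line and 0.627 (0.0974 to 3.22) in the repressive line, so that changes of a few fold in either direction were not detectable at this depth. The neutral value included the library with 6 counts, and without neutral tamoxifen replicate 3 the log2 fold change was 0.13.

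No difference of GSTM3 between lines passed the test without tamoxifen, where its counts were too low for the test to decide. GSTM3 differed from the parental line by −0.44 (SE 1.01) on the log2 scale in the neutral line and by 0.04 (SE 0.978) in the repressive line, with edgeR adjusted p = 0.859 and 0.991, against 9.74% and 10.8% of all genes called in these comparisons. The response in the repressive line minus that in the neutral line was −1.86 (SE 1.46, edgeR adjusted p = 0.657), where 3.39% of all genes were called. In the order of mean levels, the activating tamoxifen group was followed by neutral tamoxifen at 3.50 ± 3.92 CPM (SD, n = 4), parental tamoxifen at 2.66 ± 2.49 and parental vehicle at 1.71 ± 1.21. Repressive vehicle had 1.55 ± 2.27 CPM, activating vehicle 1.396 ± 0.259, neutral vehicle 1.25 ± 1.06 and repressive tamoxifen 1.14 ± 0.781. Each of these 7 groups overlapped its neighbor in the order, and the activating tamoxifen group overlapped none.

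The other 4 members had at most 1 count each in the whole series. GSTM1 and GSTM4, both xenobiotic-conjugating transferases, had 0 counts in all 32 libraries, which allows up to 0.140 CPM over the series on library totals without TMM. GSTM2 had 1 count, in activating tamoxifen replicate 4, and GSTM5 had 1 count, in neutral vehicle replicate 4. In the 4 activating tamoxifen libraries together, a count of 0 allowed up to 1.41 CPM of GSTM1, GSTM4 or GSTM5 after TMM scaling. On the library totals, 2526325 counts together, it allowed up to 1.19 CPM. Either limit is a small part of the level of the GSTM3 row there. So 1 of 5 members passed the expression filter, GSTM3, and it passed through the group in which it was high. Sequence sharing bears on these values, because reads that fit several members can be divided among them. Of the 31-base windows in its transcripts, GSTM1 shared 61.1% with other members, GSTM4 18.5%, GSTM2 14.8% and GSTM5 12.3%, while GSTM3 shared 0, all on the same strand. GSTM3 shared 6.15% of its windows on the same strand with genes other than the 5 members, the pseudogenes GSTM3P1 and GSTM3P2 among them. On the reverse strand of other transcripts 9.38% occurred.

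**Figure D2:**
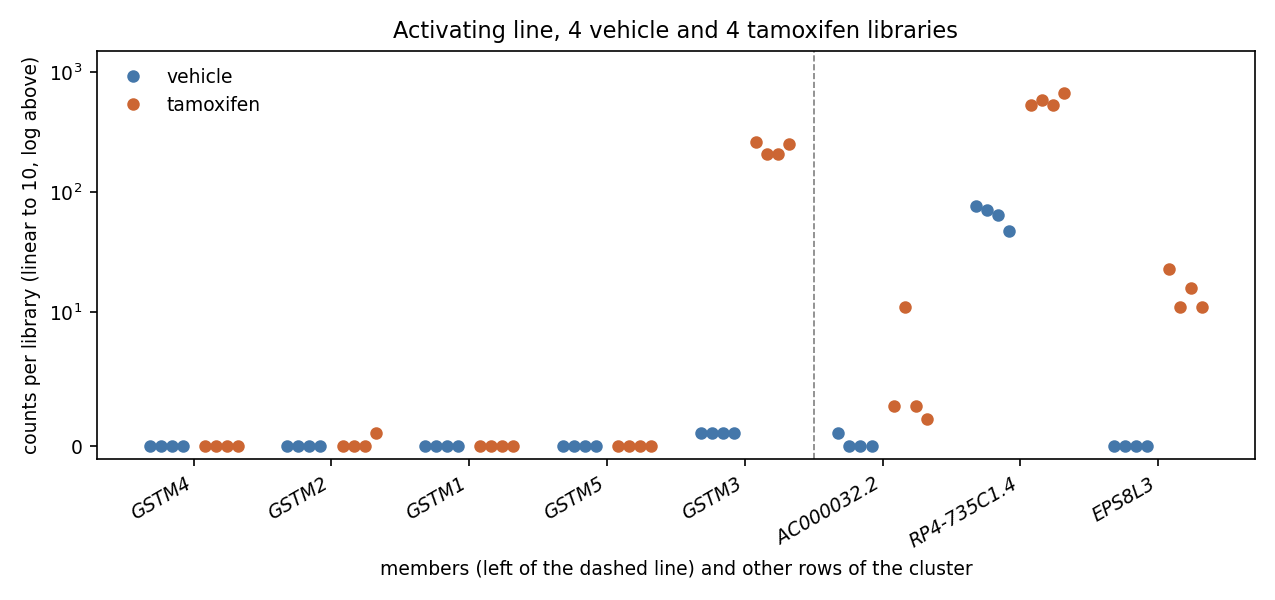
Counts per library (linear to 10, logarithmic above) in the activating line for the 5 members, left of the dashed line, and 3 other rows of the cluster, with 4 vehicle points in blue and 4 tamoxifen points in orange for each. GSTM3 goes from 1 count in each vehicle library to 206 to 260 with tamoxifen, and the other 4 members stay at 0 apart from 1 count of GSTM2.

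GSTM3 was not the only row of the cluster that was high in these libraries. Its opposite-strand partner RP4-735C1.4 (ENSG00000241720, chr1:110268442-110317874, plus strand) is annotated as an lncRNA of 4 exons and 808 bases, and its exon 3, of 202 bases at chr1:110279562-110279763, lies wholly inside GSTM3 exons. It had 77, 71, 64 and 48 counts in activating vehicle and 533, 581, 530 and 671 counts in activating tamoxifen libraries. Every library of the series had counts on this row, and 114 was the highest outside activating tamoxifen. The means were 88.6 ± 11.1 and 1088 ± 94.5 CPM (SD, n = 4), a ratio of 12.3 with a counting interval of 10.9 to 14.1, or 9.90 (8.70 to 11.3) when scaled by library totals. Since it shares exonic bases with GSTM3, it is not an independent readout of the same contrast and is given without a test.

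The balance of the 2 rows differed between the groups. GSTM3 took 28.6% of the summed counts of the pair in activating tamoxifen, from 26.2 to 32.8% by library, and 1.29 to 3.03% in the other 7 groups. Per exonic length the lncRNA row was the higher one throughout. In activating tamoxifen it reached 1346 ± 117.0 CPM per kb against 91.6 ± 8.84 CPM per kb for GSTM3 (SD, n = 4). Part of the lncRNA row can also hold reads of GSTM5, because 151 of its 778 windows of 31 bases occurred on the same strand in other members.

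**Figure D3:**
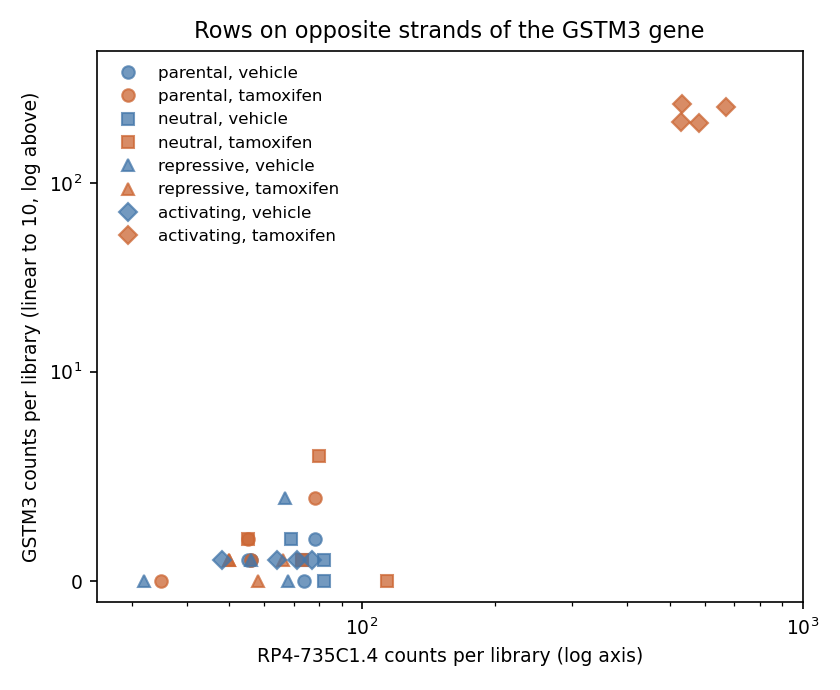
Counts per library of GSTM3 (vertical, linear to 10, logarithmic above) against its opposite-strand partner RP4-735C1.4 (horizontal, log axis), with the line given by symbol and the treatment by color. The 4 activating tamoxifen libraries lie at 206 to 260 and 530 to 671 counts, and the other 28 lie at 0 to 6 GSTM3 counts and at most 114 counts of the partner.

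In the lines that did not choose the family, RP4-735C1.4 gave 1 call. Its log2 fold change with tamoxifen was −0.39 (SE 0.165) in the parental, 0.22 (SE 0.136) in the neutral and 0.04 (SE 0.157) in the repressive line, with edgeR adjusted p = 0.635, 0.467 and 0.914. The repressive response minus the neutral one was −0.18 (SE 0.200, edgeR adjusted p = 0.790). In vehicle libraries the row was lower in the repressive line, with 68, 67, 32 and 56 counts, than in the parental line, with 56, 74, 55 and 78 counts, and the means were 78.6 ± 13.7 and 113.6 ± 5.11 CPM (SD, n = 4). That difference was −0.52 on the log2 scale (SE 0.156, edgeR adjusted p = 0.0341), where 10.8% of all genes were called, so 1 such call does not set this row apart. The call was lost with DESeq2 (adjusted p = 0.0812), without the filter on low counts (edgeR adjusted p = 0.0810) and when any of 5 of the 8 libraries was left out, at edgeR adjusted p from 0.0768 to 0.0901. Those were parental vehicle replicates 2 and 3 and repressive vehicle replicates 2, 3 and 4. Neutral vehicle libraries differed from parental ones by −0.27 (SE 0.145, edgeR adjusted p = 0.272).

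AC000032.2 (ENSG00000260246, chr1:110235739-110236364, minus strand), the lncRNA row opposite GSTM1, was also higher in the activating tamoxifen libraries, at much lower counts. It had 1, 0, 0 and 0 counts with vehicle and 3, 11, 3 and 2 counts with tamoxifen. The groups did not overlap, but at their closest they stood at 2 counts against 1, so this says little. The ratio of 19 to 1 counts was 26.3 with a counting interval of 4.19 to 1095. Elsewhere it had at most 1 count in a library. It did not pass the expression filter, and GSTM1 itself stayed at 0 in the same libraries.

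EPS8L3, an EPS8-like adaptor protein of growth factor receptor signaling to actin, lies on the minus strand at chr1:110292702-110306649. Its end, not its start, is 9.04 kb from the start of GSTM3. The gene has no opposite-strand exons in the annotation, but it lies wholly between exons 3 and 4 of RP4-735C1.4 on the other strand. EPS8L3 is therefore not a locus apart from that row. It had 0 counts in the 4 activating vehicle libraries and 23, 11, 16 and 11 counts with tamoxifen. Against a floor of 3 counts over the vehicle group it was at least 28.2-fold higher, or at least 22.6-fold with library totals. Outside those 4 libraries it had 2 counts in neutral tamoxifen replicate 3 and 0 in the other 27. It passed the filter only through the group in which it was high.

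**Figure D4:**
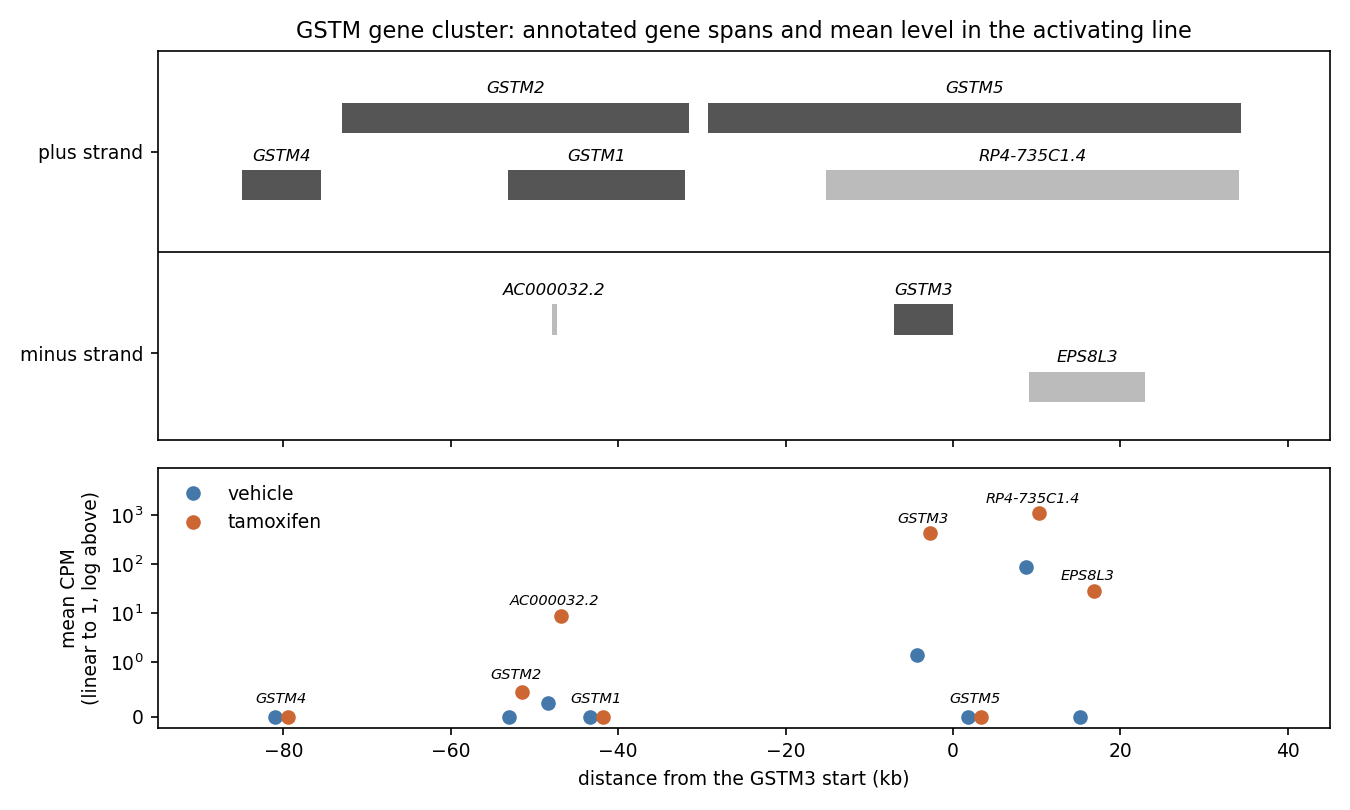
Annotated spans of the GSTM genes (dark) and 3 other rows (light) by strand, drawn by distance in kb from the GSTM3 start (top), and the mean CPM of each row in the activating line, linear to 1 and logarithmic above (bottom), with vehicle in blue and tamoxifen in orange at the middle of each span. GSTM3, RP4-735C1.4, EPS8L3 and AC000032.2 are higher with tamoxifen, and GSTM1, GSTM4 and GSTM5 are at 0 in both groups.

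The wider neighborhood held 42 other rows within 500 kb of the cluster ends, of which 27 had a count and 6 could be tested. The 6 include EPS8L3 and RP4-735C1.4, whose values in the activating line are given above with no test. Of the other 4, 0 were called in the activating line by edgeR or DESeq2, with 2 at an unadjusted edgeR p under 0.05, where 44.8% of all genes were called. In the parental, neutral and repressive lines 0 of the 6 passed edgeR's test, where 0%, 4.72% and 17.8% of all genes did. None did with DESeq2, while before adjustment 1, 0 and 2 of them had an edgeR p under 0.05. EPS8L3 could not be called there, with 0 counts in the parental and repressive libraries and 2 in neutral tamoxifen replicate 3. Of the 27 rows with a count, AC000032.2, RP4-735C1.4 and EPS8L3 had more counts in every activating tamoxifen library than in any other library of the series, and 1.05% of all 23861 rows with a count did so. This comes from the contrast that chose the family and is a description. The nearest tested neighbor on the GSTM4 side of the cluster was not called. This row, RP5-1160K1.6, opposite AMPD2, had 40 to 57 counts with vehicle and 24 to 27 with tamoxifen in the activating line, a log2 fold change of −0.31 (edgeR adjusted p = 0.179). Of the 8257 counts on the neighboring rows, 92.3% lay on the 10 counted rows with opposite-strand exons.

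Processed pseudogenes of the family were also counted, and their sequence derives from its messages. Of the 544 windows of GSTM3P1, of the length used above, only 3 occurred on the same strand in GSTM3. All 544 occurred on the reverse strand of other transcripts. The counts of GSTM3P1 are therefore not read as a level of the family. GSTM3P1, on chromosome 20 at chr20:21482033-21482606 and wholly opposite the exons of ENSG00000278041, had 8, 5, 5 and 2 counts in activating vehicle and 0 in all 4 activating tamoxifen libraries. It was thus at least 4.81-fold lower against the floor of 3 counts over the group, or 5.997-fold with library totals. The summed counts were also lower with tamoxifen in the other lines, at 4 with vehicle and 0 with tamoxifen in the parental, 14 and 4 in the neutral and 11 and 4 in the repressive line. The row did not pass the expression filter, so none of these differences, nor a difference between the lines, was tested. GSTM2P1 had 1 count in the series, and GSTM3P2 and GSTM5P1 had 0.

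The 5 tested genes whose profile over the 8 groups was most like that of GSTM3 were ranked by the root mean square difference of centered mean log2 CPM among 3984 genes. They were CTC-327F10.4 (0.215), PLEKHG3 (0.287), RP11-74C13.4 (0.290), DNAJB3 (0.294) and AC114812.5 (0.379). The activating tamoxifen counts were 164 to 221 for CTC-327F10.4, and the other 28 libraries had at most 1 count. DNAJB3, a cochaperone gene, had 165 to 204 counts there and at most 3 elsewhere. PLEKHG3, a guanine nucleotide exchange factor gene opposite SPTB, had 215 to 296 and at most 5. RP11-74C13.4, opposite ETNK2, had 336 to 411 counts and at most 7, and AC114812.5, opposite UGT1A6, had 118 to 151 and at most 3. DNAJB3 (chr2:234651396-234652661) and AC114812.5 (chr2:234662951-234663991) lie close together on the minus strand, so the 5 rows are not 5 separate loci. The partner RP4-735C1.4 ranked 29 (1.03). A profile of this shape rests on 1 high group out of 8, so likeness here says little beyond that group.

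Few genes that work with the mu class could be tested. Of 23 other glutathione transferases and related proteins, 16 had a count and 2 could be tested, MGST2 and EEF1G, neither of which was called in any of the 4 lines. With DESeq2 neither was called either, and before adjustment MGST2 in the repressive line was the 1 case with an edgeR p under 0.05. Over all tested genes edgeR called 0% in the parental, 4.72% in the neutral, 17.8% in the repressive and 44.8% in the activating line. Of 44 genes of glutathione supply and redox balance, 43 had a count and 5 could be tested, GPX3, GLRX5, PRDX1, TKT and FTH1. In the parental and neutral lines 0 of these 5 were called by edgeR or DESeq2, with 0 and 1 (GLRX5) at an unadjusted p under 0.05. None of the 16 or 43 counted genes was above every other library in all 4 activating tamoxifen libraries. Only 1.05% of all 23861 rows with a count were, so lists of this size could well hold none.

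Within the redox list 1 of 5 tested genes was called in the repressive line, where 17.8% of all genes were, and 1 of 5 in the activating line, where 44.8% were. PRDX1, a peroxiredoxin that reduces peroxides, had 19 to 35 counts with vehicle and 12 to 18 with tamoxifen in the repressive line, at 38.2 ± 8.04 and 23.8 ± 4.25 CPM (SD, n = 4). It fell by 0.74 on the log2 scale (SE 0.251, edgeR adjusted p = 0.0385), a call lost with DESeq2 (adjusted p = 0.157), without the filter (edgeR adjusted p = 0.130) and without any of vehicle replicates 2, 3 and 4 or tamoxifen replicates 1, 3 and 4 (edgeR adjusted p from 0.0557 to 0.143). FTH1, the ferritin heavy chain that stores iron, had 8 to 20 counts with vehicle and 20 to 67 with tamoxifen in the activating line, at 16.9 ± 3.54 and 75.7 ± 34.6 CPM (SD, n = 4), a log2 fold change of 2.26 (SE 0.305). FTH1 exons overlap those of BEST1 on the other strand. The median log2 fold change of the 5 genes was −0.12 in the parental, −0.26 in the neutral, 0.34 in the repressive and −0.30 in the activating line, where that of all tested genes lay between −0.09 and 0.01.

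**Figure D5:**
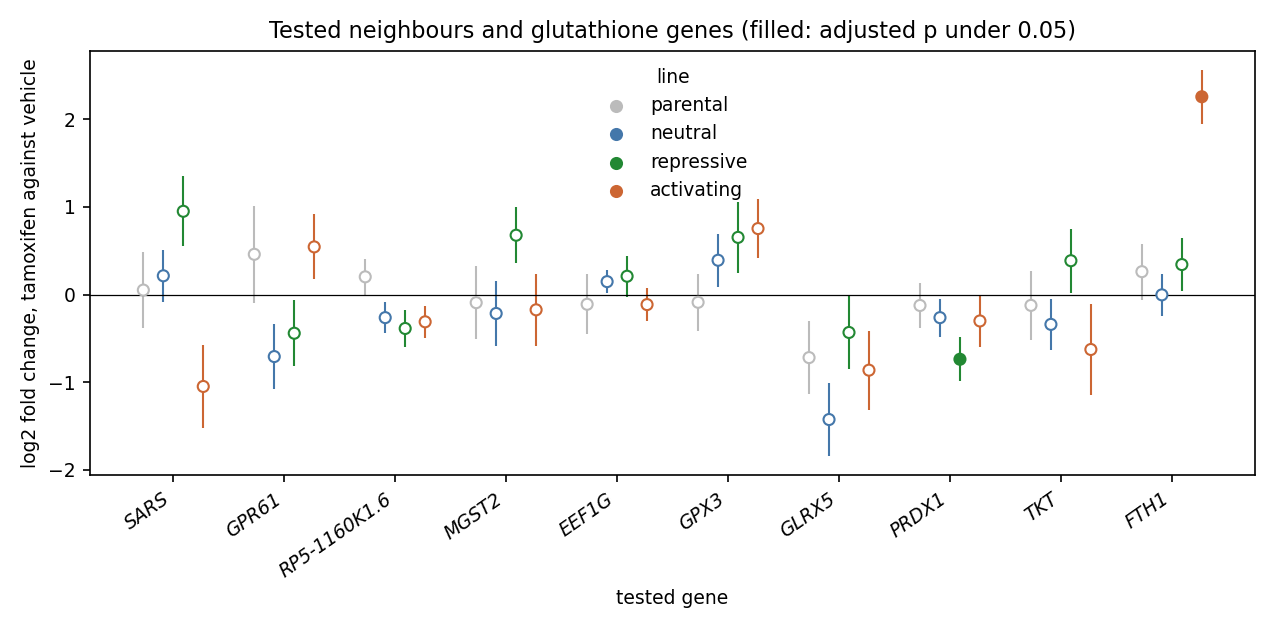
Log2 fold change with tamoxifen (vertical, error bars are standard errors, 4 against 4 libraries) of 3 tested cluster neighbors and the 7 tested glutathione genes in the 4 lines, given by color. Filled points have an edgeR adjusted p under 0.05 and are PRDX1 in the repressive line (−0.74) and FTH1 in the activating line (2.26).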

How the data were processed

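The members and gene lists were chosen with earlier results of these data known. The authors processed stranded mRNA libraries with the nf-core workflow on GRCh37 and deposited estimated counts per gene from Salmon 1.9.0, not normalized. The annotation release and strand setting are not given in the sources used here. The 1.06% of deposited values that were not whole were rounded. Groups came from sample titles. Tests were run in R 4.3.3 with edgeR 4.0.16 (filterByExpr over 8 groups, 3985 of 57773 genes, TMM, glmQLFit and glmQLFTest, Benjamini-Hochberg adjustment at 0.05), fitted over the libraries of each comparison. DESeq2 1.42.0, which the study used in another version, was an alternative, as were other scaling, no filter, a replicate block and leaving out each library. Intervals are exact at 95%, and 3 counts over a group were the floor. The scripts were tested on simulated data.

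Named genes were the members, their opposite-strand partners, called list genes, the nearest tested neighbors (1 of them is not reported here) and the 5 most similar profiles. The pseudogenes were chosen after their values were seen. Same-group libraries differed by a chi-square per gene of 1.45 to 25.8 over 48 pairs, so none was a copy of another. This measure cannot tell libraries made from the same RNA or culture from those of separate cultures.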

Additional observations from a re-analysis of the deposited data

Results flagged for a closer look

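Among 29 groups of 4 libraries checked on named rows, GSTM3P1 on chromosome 20 among them, 6 held 1 library far from the other 3 by Dixon's ratio. Chance marks about 1 group in 20, but this rate does not hold for groups with 0 in 3 libraries. There any count gives a ratio of 1. Most of the 6 rest on 1 or 2 counts. GSTM2 reached 1.80 CPM in activating tamoxifen replicate 4, and GSTM5 reached 1.17 CPM in neutral vehicle replicate 4, each from 1 count with 0 in the other 3 libraries. EPS8L3 was at 3.00 CPM in neutral tamoxifen replicate 3, from 2 counts, with 0 in the others, and that library also had the 6 GSTM3 counts. AC000032.2 was at 1.06 CPM in activating vehicle replicate 1, from 1 count. In activating tamoxifen replicate 2 it stood at 20.2 CPM from 11 counts, with 3.60 to 6.21 CPM in the other 3 libraries. GSTM3P1 was at 5.87 CPM in neutral vehicle replicate 4, with 3.70 to 4.02 CPM in the others.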

How the results depend on the processing

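GSTM3 stayed without a call in the parental, neutral and repressive lines under every alternative that gave a value. Its small differences changed sign with single libraries, each at a few counts. Leaving out 1 library gave log2 fold changes of −0.081 to 0.97 in the parental line (negative without tamoxifen replicate 1), −1.03 to 0.87 in the repressive line (positive without vehicle replicate 2) and −1.44 to 0.44 between repressive and parental vehicle (negative at −0.37 and −1.44 without parental or repressive vehicle replicate 2). The difference in mean CPM ranged from −0.105 to 1.83 in the parental line and from −0.930 to 0.675 in the repressive line. RP4-735C1.4 in the repressive line ranged from −0.034 to 0.11.

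Counts over all genes moved more. The parental line had 24 calls without the filter on low counts and 32 with the replicate block, and 0 to 3 when 1 library was left out (3 without vehicle replicate 1). DESeq2 called 451 genes in the repressive line, against 709, and 273 between repressive and parental vehicle, against 432. Leaving out 1 library gave 105 to 415 calls in the neutral line, against 188 (105 without tamoxifen replicate 3, 415 without tamoxifen replicate 4). It gave 202 to 517 between neutral and parental vehicle, against 388, with 202, 215 and 241 without parental vehicle replicate 3 and neutral vehicle replicates 2 and 4. It gave 251 to 480 between repressive and parental vehicle, with 280 and 251 without parental vehicle replicate 3 and repressive vehicle replicate 2. The redox list had 0 calls in the repressive line with DESeq2 or without the filter, and 2 in the activating line without the filter. The cause was not tested.

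Replicate numbers are shared across groups, and 8 of 16 same-numbered pairs had a correlation of deviations over 0.1 (−0.026 to 0.247). The main tests did not use the numbers as pairs. Whether they mark pairs is not settled, because differently numbered libraries were not compared in this way. With the replicate block, calls numbered 208 between neutral and parental vehicle and 686 between repressive and parental vehicle. TMM moved log2 fold changes by 0.31 in the activating line relative to library totals, by 0.14 and 0.17 in the neutral and repressive lines, and by 0.03 in the parental line. Depth limits all 5 members, GSTM3 included in the 28 libraries outside activating tamoxifen, where it had at most 6 counts.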
